A study of Zea mays with 8 samples.

Results

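Among 39498 maize gene IDs counted by RNA sequencing of immature ears, 308 were detected in the inbred line Mo17 and at 0 counts in the inbred line B73. These members were chosen by the parental libraries: 0 counts in both B73 libraries and at least 2 CPM, the count of an ID over the summed gene counts of its library and scaled to 1000000, in both Mo17 libraries. IDs numbered 460 or lower, and those in 1 later stretch of 378 numbers, were left out, which removed 3 IDs. The parental levels are given as description, while the rule used no hybrid values. The rule was set with earlier results of these data known. The study titles itself as a study of CHH methylation and gene expression in maize. It holds 8 libraries, 2 in each of 4 groups: the wild-type parents B73 and Mo17, a wild-type hybrid whose genotype is written Mo17/B73/;+/+ (WTF1), and a hybrid written B73/Mo17;mop1/mop1 (mop1F1). All groups are immature ear, a tissue label that could not be checked because no ID was paired with a gene name. For the same reason IDs stand without names, chromosome positions or functions, and are given here without their suffix RefGen_V4.

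Inbred maize lines are known to differ in gene content and in which of their shared genes are transcribed, and a hybrid receives 1 copy of each gene from either parent. A gene transcribed in 1 parent and silent in the other is a simple case for a hybrid: if the active copy keeps its rate, the hybrid level equals the mean of the parents, called the mid-parent level here. The mop1 gene of the mutant hybrid encodes an RNA-dependent RNA polymerase that makes the precursors of small RNAs for RNA-directed DNA methylation, a pathway that silences transposons and some genes near them. Since B73 was at 0, the mid-parent level of every member was 50% of its Mo17 level.

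The gene totals ran from 11723096 counts in WTF1 replicate 1 to 26199577 in WTF1 replicate 2, so that a count of 0 allows up to 3 counts, or 0.115 to 0.256 CPM by library. These limits cover counting error only. Whether replicates are separate plants is not stated, so p-values measure only how far these libraries vary, which may be technical. Per the names of the deposited tables, B73 was the mapping genome for all libraries except those of Mo17, which used Mo17. In the hybrids, reads of low alignment quality made up 8.01% to 9.35% of records, against 1.76% to 6.06% in the parents. A loss of Mo17 reads in mapping and a lower level of the Mo17 transcripts cannot be told apart in these tables.

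Most members were modestly expressed in Mo17. The mean CPM of the Mo17 libraries ran from 2.10 to 189, with a median of 6.85 and quartiles of 3.82 and 15.9. Together they took 0.425% and 0.423% of the counts of the 2 Mo17 libraries. Just inside the limit of 2 CPM lay Zm00001d023232 (2.17 and 2.02 CPM in the Mo17 libraries) and Zm00001d031558 (2.65 and 2.02 CPM). Just outside it lay Zm00001d043079 (1.99 and 3.18 CPM) and Zm00001d047454 (1.99 and 2.37 CPM). A further 86 IDs met the limit in Mo17 but had 1 to 3 counts in a B73 library.

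Nearly all members were transcribed in both hybrids. Of the 308 IDs, 282 (91.6%) had counts in all 4 hybrid libraries, and 243 (78.9%) had more than 3 counts in each. The mid-parent level would have given every member at least 12.3 counts in every hybrid library. The number of members at 0 counts was 20 and 7 in the WTF1 libraries and 8 and 10 in the mop1F1 libraries, for replicates 1 and 2. The 20 came from the library with the fewest counts.

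In both hybrids the members stood well below the mid-parent level. The median member reached 51.2% of it in WTF1 (quartiles 28.9% and 78.4%) and 49.6% in mop1F1 (quartiles 31.0% and 73.7%). The median was 51.9% and 44.5% in the 2 WTF1 libraries and 33.3% and 59.6% in the 2 mop1F1 libraries, so the difference between the hybrids was smaller than that between libraries of the same hybrid. In WTF1, 265 members (86.0%) lay below the mid-parent level and 147 (47.7%) below 50% of it. In mop1F1 these numbers were 272 (88.3%) and 157 (51.0%). Of the 17988 IDs at 2 CPM or more in all parental libraries, 55.0% in WTF1 and 56.4% in mop1F1 lay below the mid-parent level. Below 50% of it lay 5.98% and 5.87% of these IDs. Both hybrids were below the mid-parent level at 257 members and at or above it at 28.

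**Figure D1:**
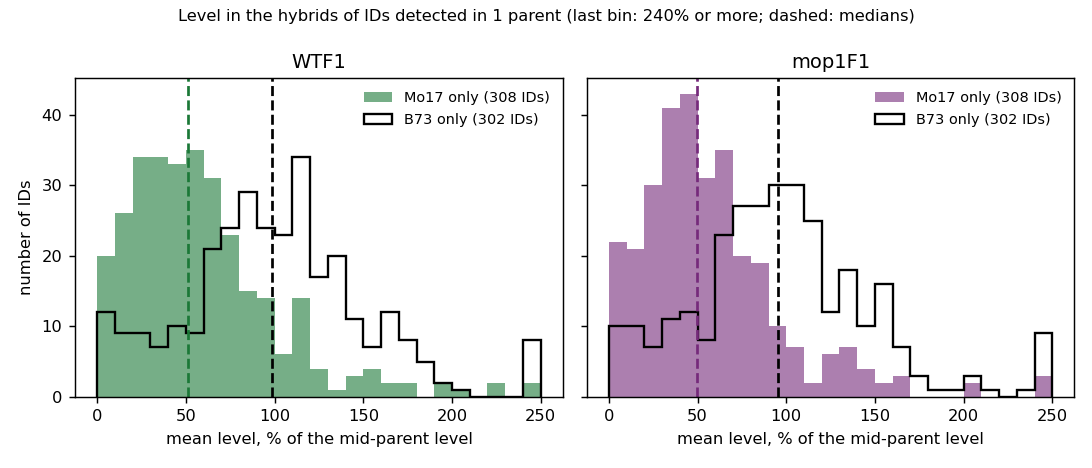
Histograms of the mean hybrid level (x axis, percent of the mid-parent level) against the number of IDs (y axis), for WTF1 on the left and mop1F1 on the right. Filled bars are the 308 IDs detected in Mo17 alone, the outline the 302 IDs detected in B73 alone, and dashed lines the medians; the filled bars centre near 50% and the outlines near 100%.

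The summed level of all members, which weights the abundant ones, gave a similar order. The sum was 4253 and 4234 CPM in Mo17, 1462 and 994 CPM in WTF1, and 994 and 1442 CPM in mop1F1. As a share of the mid-parent sum, the hybrid libraries held 68.9% and 46.9% in WTF1 and 46.9% and 68.0% in mop1F1. All 4 hybrid libraries were below 100%, and the library with the higher sum was replicate 1 in WTF1 and replicate 2 in mop1F1.

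The shortfall was of similar size at all levels in Mo17. The 103 IDs lowest in Mo17 (2.10 to 4.26 CPM) had a median of 53.1% of the mid-parent level in WTF1 and 50.1% in mop1F1. The next 102 IDs (4.32 to 11.5 CPM) had 44.8% and 48.8%. The 103 highest (11.6 to 189 CPM) had 53.6% and 49.1%. The quartiles of the 3 groups overlapped widely, in WTF1 from 24.8% to 90.7% for the lowest IDs and from 31.3% to 76.6% for the highest.

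**Figure D2:**
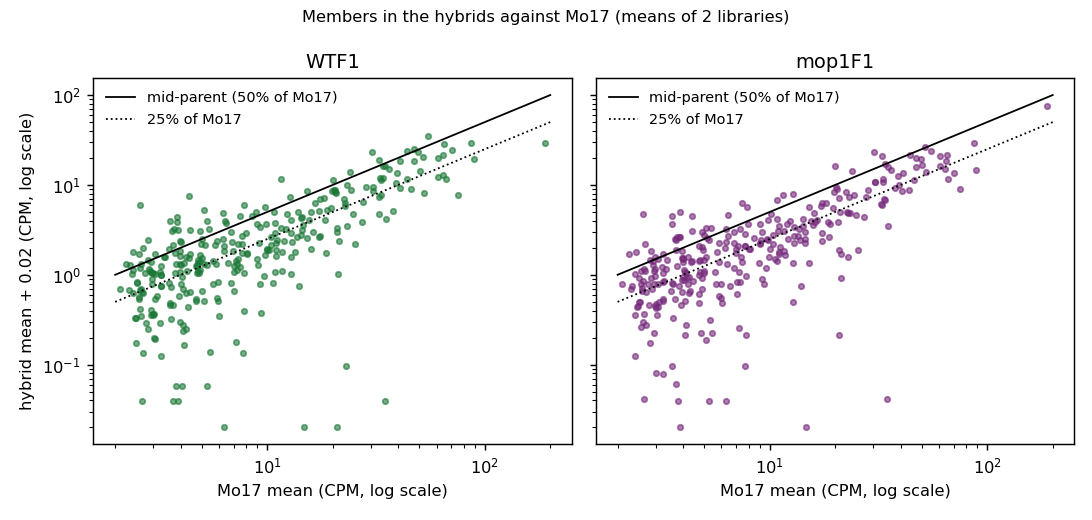
Mean hybrid CPM plus 0.02 (y axis, log scale) against mean Mo17 CPM (x axis, log scale) for each of the 308 members, with WTF1 on the left and mop1F1 on the right. The solid line is the mid-parent level and the dotted line 25% of the Mo17 level; the cloud runs along the dotted line at all Mo17 levels, with a few IDs near 0.02 at the bottom.

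The IDs with the opposite pattern did not show such a shortfall. The same rule with the parents exchanged gave 302 IDs detected in B73 and at 0 in Mo17. Their median was 98.8% of the mid-parent level in WTF1 and 95.3% in mop1F1. Among 17988 IDs at 2 CPM or more in all 4 parental libraries the medians were 96.0% and 94.7%. In each hybrid library the median of the Mo17 members was 0.426 to 0.612 times that of the B73 counterpart. The B73 medians were 114% and 72.7% in the WTF1 libraries and 78.2% and 107% in the mop1F1 libraries, so they moved between the libraries of a hybrid in the same direction as those of the Mo17 members. The difference between the sets was not tested, since the parental levels had chosen the members of both. The sets also differ in the genome their expressing parent was mapped to.

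Both WTF1 libraries were below both mid-parent values, each from the parental libraries of 1 replicate number, at 207 members (67.2%), and both mop1F1 libraries at 214 (69.5%). Over all 24511 tested IDs these shares were 31.1% and 32.2%. Both libraries were above both values at 12 members in each hybrid (3.90%), against 22.1% of all tested IDs in WTF1 and 17.8% in mop1F1. All 4 hybrid libraries were below both values at 182 members (59.1%), against 22.6% of all tested IDs. The mid-parent values rest on the Mo17 libraries that chose the members, so these shares describe the set and carry no test.

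The most abundant members in Mo17 show how far single IDs departed from the median. Zm00001d013111, at 110 and 268 CPM in Mo17, had 31.1 and 27.9 CPM in WTF1 and 82.3 and 69.5 CPM in mop1F1. Both WTF1 values were thus below both mop1F1 values, at 31.3% and 80.4% of the mid-parent level. Zm00001d040534, at 86.5 and 87.0 CPM in Mo17, had 37.4 and 20.6 CPM in WTF1 and 26.4 and 31.6 CPM in mop1F1. It stood at 66.8% and 66.9% of the mid-parent level, and its hybrid libraries overlapped.

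Zm00001d043896 fell further short, with 93.7 and 84.3 CPM in Mo17, 27.7 and 11.5 CPM in WTF1 and 13.3 and 16.1 CPM in mop1F1 (44.1% and 33.0% of the mid-parent level). Zm00001d023704 was lower still in the hybrids relative to Mo17. It had 83.0 and 67.4 CPM in Mo17, 8.53 and 6.87 CPM in WTF1 and 3.83 and 14.3 CPM in mop1F1, which is 20.5% and 24.1% of the mid-parent level. Zm00001d002480 differed between the libraries of 1 hybrid. It had 76.4 and 64.3 CPM in Mo17 and 32.4 and 16.8 CPM in WTF1, while the mop1F1 libraries held 0.0851 CPM (2 counts) and 26.8 CPM.

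**Figure D3:**
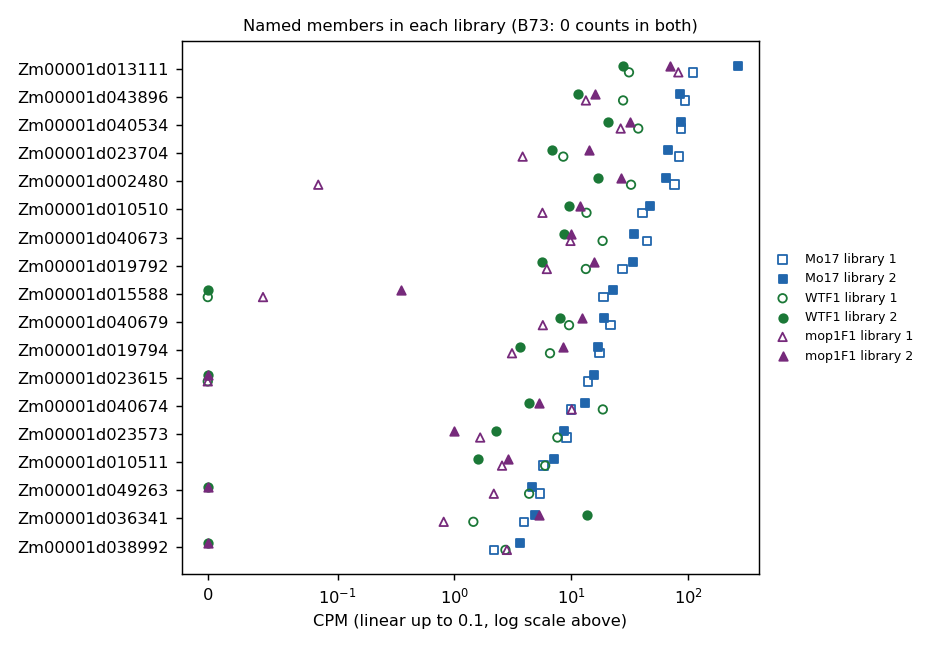
CPM of 18 named members in each library (x axis, linear up to 0.1 and log scale above), ordered by the Mo17 mean; squares are Mo17, circles WTF1 and triangles mop1F1, open for replicate 1 and filled for replicate 2. The Mo17 squares lie close together for most IDs, and the hybrid symbols lie mainly to their left, down to 0 for Zm00001d023615.

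Few members were silent in the hybrids, defined as 0 counts in both libraries of a hybrid. There were 3 in WTF1 and 2 in mop1F1, and 1 ID, Zm00001d023615, was at 0 in all 4 hybrid libraries. It had 13.9 and 15.6 CPM in Mo17 (14.7 ± 1.19, SD, n = 2). Taking 3 counts per library as the most that a 0 allows, its mid-parent level was at least 39.7-fold above WTF1 and at least 60.6-fold above mop1F1. These bounds cover counting error only. A loss of Mo17 reads in mapping to B73 cannot be told apart from silence here. The B73 counterpart held 5 silent IDs in WTF1 and 2 in mop1F1, of 302.

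The other silent members were silent or nearly so in both hybrids. Zm00001d015588 (18.9 and 22.8 CPM in Mo17) was at 0 in WTF1, where its mid-parent level was at least 56.2-fold higher, and had 1 and 9 counts in the mop1F1 libraries (0.0425 and 0.346 CPM). Zm00001d013844 (5.19 and 7.46 CPM in Mo17) was at 0 in WTF1 and had 1 count in 1 of the mop1F1 libraries. Zm00001d052553 (3.98 and 3.76 CPM in Mo17) was at 0 in mop1F1 and had 1 count in 1 of the WTF1 libraries. No member at 0 in 1 hybrid was above 0.346 CPM in a library of the other. Zm00001d013844 and Zm00001d052553 were named after their values were seen, to complete the count.

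A wider set of 15 members lay below 10% of the mid-parent level in both hybrids. None of their hybrid values was above 1.83 CPM, and 4 of the 15 had counts in all 4 hybrid libraries. The most abundant of them in Mo17 was Zm00001d002319, chosen after its values were seen, with 35.8 and 33.7 CPM. It had 0 and 1 count in WTF1 and 1 and 0 counts in mop1F1, or 0.110% and 0.122% of the mid-parent level. At the 25% mark, 41 members were lower in both hybrids. Taken hybrid by hybrid, 20 members in WTF1 and 22 in mop1F1 lay below 10%. Of the 302 IDs detected in B73 alone, 12 and 10 did so. Of the 17988 IDs at 2 CPM or more in all parental libraries, 48 and 43 did. Below 25% the numbers were 62 and 54, 23 and 23, and 239 and 218. How many IDs of the other sets were this low in both hybrids was not computed.

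At the other end, 5 members in each hybrid exceeded the Mo17 mean, that is 200% of the mid-parent level, and 2 did so in both hybrids, Zm00001d018570 and Zm00001d052619. The others were Zm00001d001770, Zm00001d010154 and Zm00001d036341 in WTF1 and Zm00001d023601, Zm00001d034172 and Zm00001d049413 in mop1F1. All but Zm00001d036341 were chosen after their values were seen. Of the 302 IDs detected in B73 alone, 9 exceeded 200% of the mid-parent level in WTF1 and 14 in mop1F1. Of the 17988 IDs at 2 CPM or more in all parental libraries, 820 and 747 did so. Zm00001d052619 had 2.89 and 2.31 CPM in Mo17, 1.79 and 10.2 CPM in WTF1 and 2.04 and 7.45 CPM in mop1F1. Its high values came from the libraries numbered 2, and those numbered 1 were below the Mo17 values. Zm00001d018570 was more even, with 4.16 and 2.95 CPM in Mo17, 4.52 and 3.36 CPM in WTF1 and 3.74 and 5.18 CPM in mop1F1, overlapping the Mo17 libraries. No member had all 4 hybrid libraries above both Mo17 libraries.

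The mutant hybrid was set against the wild-type hybrid at the members, a comparison that did not enter the rule for choosing IDs. The genotypes of the hybrids are written with the parents in opposite order (Mo17/B73 and B73/Mo17). If the order gives the direction of the cross, its part cannot be told apart from that of mop1. All 308 members passed the filter on low counts, as their Mo17 level required, and 274 passed it in the hybrids alone. The shares of the 308 thus include members with too few hybrid counts to be called, such as Zm00001d023615, at 0 in every hybrid library. None of the members was called, where 2 of all 24511 tested IDs were (0.00816%, edgeR quasi-likelihood test, Benjamini-Hochberg adjusted p below 0.05). DESeq2 called 0 members and 0.169% of all IDs. At an unadjusted p below 0.05 (edgeR) there were 8 members (2.60%), against 1.86% of all tested IDs in either direction. Of the 8, 7 were higher and 1 lower in mop1F1, while DESeq2 gave 8 members, 5 of them higher. The split by direction was not computed over all IDs. The median log2 fold change was 0.05 over the members and 0.05 over all tested IDs.

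The smallest p in each direction belonged to Zm00001d013111 and Zm00001d023573, and neither passed. Zm00001d013111 was at 29.5 ± 2.29 CPM in WTF1 and 75.9 ± 9.03 CPM in mop1F1 (SD, n = 2), which is 1.45 ± 0.44 higher on the log2 scale (SE, adjusted p = 1, edgeR). Zm00001d023573 had 7.59 and 2.25 CPM in WTF1 and 1.66 and 0.998 CPM in mop1F1, a difference of -1.77 ± 0.70 on the log2 scale (SE, adjusted p = 1, edgeR). The libraries of the hybrids did not overlap at either ID. Both IDs were picked for their p, and the share of such IDs over all tested IDs was not computed, so this adds no evidence. A p that misses the threshold does not show that the hybrids were alike at these IDs.

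The hybrid libraries that carry the same number in their titles were also compared across genotypes, number 2 against number 1, because the tables of both libraries numbered 1 carry the mark GP1 and those numbered 2 the mark GP5. The labels do not say what the marks mean. The libraries numbered 1 also held 9.70% and 10.3% ambiguous reads, against 1.29% and 1.35% in those numbered 2, and the part of this in the results below was not tested. With a term for the number in the fit of all libraries, 8 members were called (2.60%), 1 higher and 7 lower in the libraries numbered 2 (edgeR, adjusted p below 0.05). Of all tested IDs 2.40% were called, 0.143% higher and 2.26% lower, so the share of members was near the background. Here too the members include IDs with too few hybrid counts to be called. In a fit of the hybrid libraries alone none of the 8 passed (edgeR, adjusted p from 0.377 to 0.399). DESeq2 called 32 members (10.4%), 13 higher and 19 lower in the libraries numbered 2, against 13.7% of all IDs, 3.07% higher and 10.6% lower.

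Several of these 8 members were present in 1 number and at or near 0 in the other, in both genotypes. Zm00001d049263 had 51 counts in each library numbered 1, which is 4.35 CPM for WTF1 and 2.17 CPM for mop1F1, and 0 counts in both libraries numbered 2. That is at least 28.4-fold lower in the libraries numbered 2, with 3 counts allowed per library (edgeR, adjusted p = 0.0378). Zm00001d038992 likewise had 2.73 and 2.81 CPM in the libraries numbered 1 and 0 counts in those numbered 2, at least 24.1-fold lower (edgeR, adjusted p = 0.0467). Where present, Zm00001d049263 stood at 175% of its mid-parent level in WTF1 and 87.4% in mop1F1, and Zm00001d038992 at 188% and 193%. The Mo17 libraries held 5.37 and 4.57 CPM of Zm00001d049263 and 2.17 and 3.64 CPM of Zm00001d038992.

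The other lower members were Zm00001d013718, Zm00001d023375, Zm00001d046181, Zm00001d049250 and Zm00001d051713. Most of them were at no more than 2 counts in each library numbered 2. Zm00001d023375 was the exception, with 38.1 and 34.2 CPM in Mo17, 22.1 and 8.24 CPM in WTF1 and 22.9 and 6.45 CPM in mop1F1. It was near its mid-parent level in the libraries numbered 1 and below it in those numbered 2 (log2 fold change -1.70 ± 0.26, SE, edgeR, adjusted p = 0.0467, and 0.399 in the hybrids alone). These 5 IDs were named to complete the count, after their values were seen.

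In the other direction Zm00001d036341 rose from 1.45 to 13.6 CPM between libraries 1 and 2 of WTF1 and from 0.808 to 5.26 CPM between those of mop1F1. Its log2 fold change was 2.88 ± 0.44 (SE, edgeR, adjusted p = 0.0467), and the Mo17 libraries held 3.92 and 4.86 CPM.

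**Figure D4:**
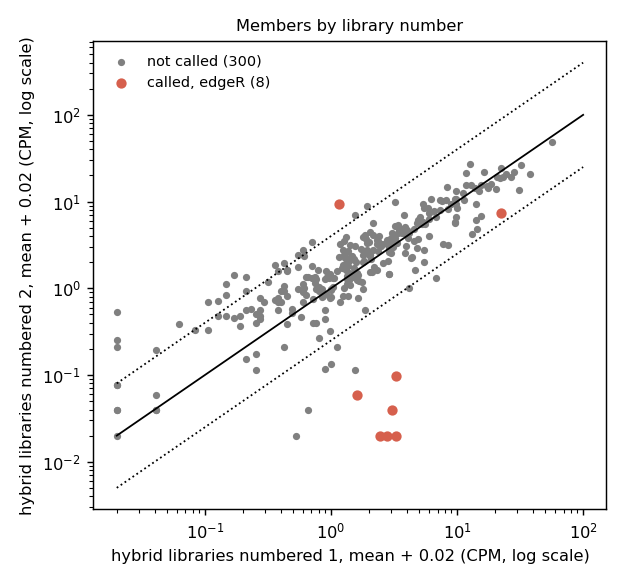
Mean CPM plus 0.02 of the members in the 2 hybrid libraries numbered 1 (x axis, log scale) and in the 2 numbered 2 (y axis, log scale); the solid line marks equal levels and the dotted lines a 4-fold difference. The 8 called members are red: 1 lies above the diagonal and 7 below it.

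Of the 26 members at 0 in any hybrid library, 4 were at 0 in both libraries numbered 2 and present in both numbered 1, and 5 the reverse. The share over all IDs was not computed, so these counts are not read as a trait of the members. The 4 were Zm00001d049263, Zm00001d038992, Zm00001d051713 and Zm00001d046849, with 0.341 to 4.35 CPM where present. The 5 were Zm00001d002279, Zm00001d013458, Zm00001d020128, Zm00001d027566 and Zm00001d053720. They had at most 0.878 CPM where present, low in both numbers. With 3 counts allowed per library at 0, the difference was at least 2.69-fold for Zm00001d027566 and 1.20-fold for Zm00001d020128. For the rest of the 5 no difference remained. Apart from Zm00001d049263 and Zm00001d038992, these IDs were named after their values were seen.

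Members were scattered over the numbering of the IDs. Neighbouring numbers usually stand for neighbouring gene models in this annotation, though no position was checked here. The median distance between consecutive members was 103 numbers, and the largest was 1156, across the excluded window. In blocks of 5000 numbers, members made up 0.952% to 1.64% of the tested IDs. In every block the median member was below the mid-parent level in both hybrids, from 38.5% to 64.9% in WTF1 and from 38.2% to 60.9% in mop1F1.

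**Figure D5:**
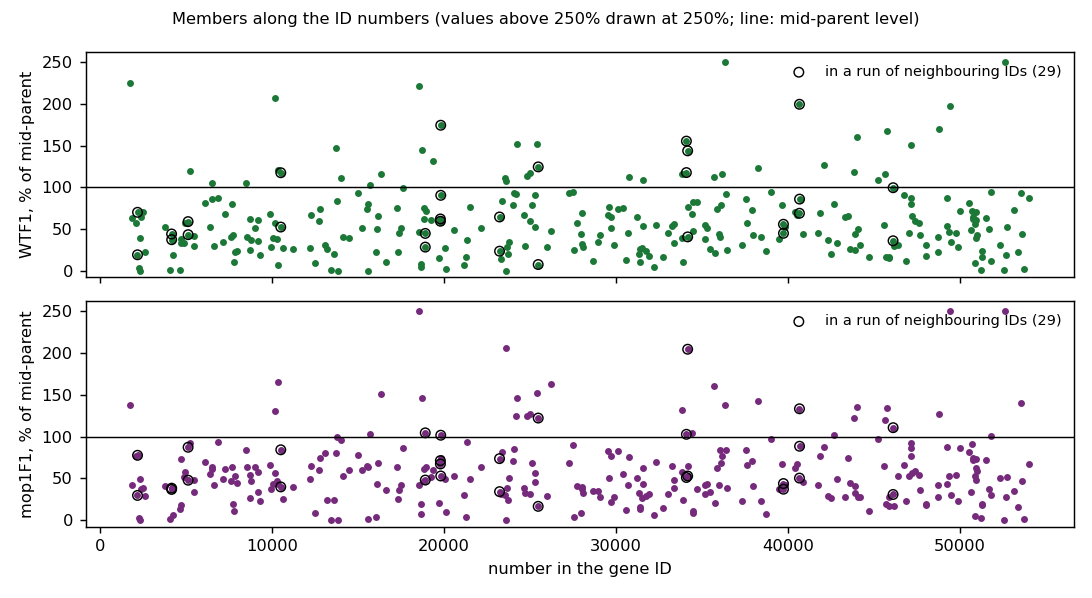
Mean level of each member (y axis, percent of the mid-parent level, values above 250% drawn at 250%) against the number in its ID (x axis), for WTF1 above and mop1F1 below. Open rings mark the 29 members in a run of neighbouring IDs; low and high members are interspersed along the whole range.

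Clusters were few. Runs of members with gaps of at most 5 numbers comprised 13 pairs and 1 run of 3, 29 members in all (9.42%), and 7 pairs of members carried consecutive numbers. The B73 counterpart had 17 pairs and 3 longer runs of up to 5, with 15.2% of its IDs. Of the 616 nearest tested IDs on either side of a member, 422 (68.5%) were at 2 CPM or more in all parental libraries, compared with 74.6% of all 24118 tested IDs outside the excluded numbers. Another 22 neighbours (3.57%) were themselves members, which made up 1.28% of all tested IDs, and 10 (1.62%) belonged to the B73 counterpart (1.25%).

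Members of a run did not all behave alike in the hybrids. The run of 3 held Zm00001d040673 (44.4 and 34.5 CPM in Mo17), Zm00001d040674 (9.89 and 13.1 CPM) and Zm00001d040679 (21.7 and 19.1 CPM). Zm00001d040673 had 18.5 and 8.66 CPM in WTF1 and 9.83 and 10.02 CPM in mop1F1, or 68.9% and 50.3% of its mid-parent level. Zm00001d040674, the next number, had 18.6 and 4.35 CPM in WTF1 and 10.1 and 5.26 CPM in mop1F1, or 199% and 133%. Zm00001d040679 had 9.55 and 7.98 CPM in WTF1 and 5.70 and 12.4 CPM in mop1F1, or 85.8% and 88.4%.

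The pairs with the highest Mo17 levels showed both cases. Zm00001d010510 (40.6 and 47.1 CPM in Mo17) stood at 52.4% of its mid-parent level in WTF1 and 39.8% in mop1F1, while its neighbour Zm00001d010511 (5.79 and 7.11 CPM) stood at 117% and 84.2%. Zm00001d019792 (27.4 and 33.7 CPM) and Zm00001d019794 (17.4 and 17.1 CPM) were close to each other, at 62.1% and 59.3% in WTF1 and at 71.2% and 67.2% in mop1F1. Of the 13 pairs, 7 were within 2-fold of each other in their percent of the mid-parent level in WTF1 and 5 in mop1F1. The share among members that are not neighbours was not computed. These counts therefore do not tell whether neighbours were more alike than other members. The widest pair, chosen after its values were seen, was Zm00001d025480, at 7.50% in WTF1 and 16.5% in mop1F1, and Zm00001d025482, at 124% and 122%.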

How the data were processed

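The authors deposited raw counts per gene ID, 1 library per table, with 39498 IDs and 5 summary rows that stayed out of library sizes and tests; their shares of records are given where used. The submitters' processing notes list DESeq2, FastQC, HISAT2, HTSeq and Trimmomatic, with no versions. Neither a strand setting nor an annotation release was found in these sources, so overlapping genes and gene families may share reads. None of the member IDs matched the gene table used here (Zm-B73-REFERENCE-NAM-5.0), so the planned lists and markers could not be tested and no sequence is shown.

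Sample titles gave the groups and replicates; a B73 table named for the other replicate followed its title. CPM used the gene total of each library. The test was that of edgeR 4.0.16, with limma 3.58.1 in R 4.3.3: IDs kept by filterByExpr, TMM scaling, 1 fit of all 8 libraries, the quasi-likelihood F test and Benjamini-Hochberg adjustment over all 24511 IDs kept; the standard error is the log2 fold change over the square root of F. The fits were also run on simulated data, in which each ID had the same mean level in all libraries apart from planted changes. The members, at 0 in B73, differ from that setting, so the simulation does not show how the fits perform on them. Alternatives were DESeq2 1.42.0, its size factors, no filter, the hybrids alone, other limits and leaving out libraries. The members and the rules were chosen with earlier results of these data known. Named were the 5 members highest in Mo17, those at 0 in all hybrid libraries, those at 0 in 1 hybrid with counts in both libraries of the other, those above all Mo17 libraries (none), at most 2 called per direction (otherwise the smallest p), the 3 longest runs of neighbours (ties by Mo17 level) and the IDs at the limit; others are said to be chosen after their values were seen.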

Additional observations from a re-analysis of the deposited data

Results flagged for a closer look

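From library 1 to library 2 the median percent of the mid-parent level of the members changed in opposite directions in the hybrids. It changed by -7.46 percentage points in WTF1 and by 26.3 in mop1F1, each time between single libraries. This difference was not tested, and the IDs detected in B73 alone moved in the same directions. Among the uncounted records, these hybrid libraries exceeded every parental one: ambiguous reads at 9.70% in WTF1 replicate 1 and 10.3% in mop1F1 replicate 1, and reads of low alignment quality at 9.35% and 8.31% in WTF1 and at 9.35% and 8.01% in mop1F1.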

How the results depend on the processing

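The median percent of the mid-parent level stayed between 44.5% and 55.5% in WTF1 and between 33.3% and 59.6% in mop1F1 under all alternatives run. Leaving out a library gave 44.5% to 52.2% and 33.3% to 59.6%. Choosing IDs on 1 replicate of the parents and taking the mid-parent from the other, added after the data were seen, gave 53.7% and 55.5% in WTF1 and 52.1% and 53.5% in mop1F1.

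Silent members depended on the limit and the libraries: at most 3 counts per library gave 12 in WTF1 and 10 in mop1F1, limits of 1 and 5 CPM in Mo17 gave 4 and 1 in mop1F1, and 1 library alone gave 7 to 20 in WTF1 and 8 to 10 in mop1F1. Members in runs of 3 or more went from 3 to 0 with a gap of at most 2 and to 6 with a limit of 1 CPM.

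For mop1F1 against WTF1, 0 members were called under any alternative. Over all IDs the 2 calls became 11 without a filter, 42 with DESeq2, 0 in the hybrids alone (170 IDs had an unadjusted p under 0.05 in edgeR), 0 under the replicate block (822 such IDs in edgeR) and 0 to 187 without 1 library (0 without mop1F1 replicate 2, 187 without mop1F1 replicate 1). Deviations of same-numbered hybrid libraries correlated at 0.308 over all IDs and 0.323 over the members, but 2 pairs do not show that the numbers pair the samples.

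For number 2 against number 1, the 588 IDs and 8 members became 1098 IDs without a filter, 3318 IDs and 32 members with DESeq2, 0 and 0 in the hybrids alone (edgeR, 2252 IDs and 27 members at an unadjusted p below 0.05), and 5477 to 6199 IDs and 44 to 49 members without 1 hybrid library, where the number is read from 1 genotype with 1 library each, assumed to vary like the other groups. The causes were not tested. Adjusted p ranged from 2.12e-06 (DESeq2) to 0.383 (hybrids alone) for the 3 named IDs, and from 0.313 to 1 for the 2 IDs named between the hybrids.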
